A study of Mus musculus with 12 samples.

Results

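The genes of potassium, sodium and hyperpolarization-activated cation channels in mouse cerebellar cortex are described here by channel family across 3 diets. Members were the protein-coding genes whose GENCODE symbol starts with Kcn, is Hcn with a number, or is Scn with a number and a or b. The rule used symbols and no measured value, and found 112 of the 54752 genes of the count table. A further 5 symbols that match belong to antisense genes and were not members. The 112 genes were divided by symbol into pore-forming families (sodium channel alpha subunits, HCN channels, Kv1, Kv2, Kv3, Kv4, the electrically silent Kv subunits, Kv7, EAG/ERG/ELK, calcium- or sodium-activated, inward rectifier and tandem-pore potassium channels) and auxiliary families (sodium channel beta, Kv beta, KChIP, Kcne and BK beta subunits, and Kcnrg), which makes 18 groups.

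RNA came from wild-type (WT) male mice of the F1 hybrid C57BL6J/FVB aged 12 weeks, 4 on each diet. AL mice ate ad libitum. Mice on dietary restriction (DR) were given a reduced daily portion just before the dark period and were killed early in the dark period without that day's meal, so that the diet and the missed meal cannot be told apart. Mice of the third group had a ketogenic diet (KD), whose composition and schedule are not given in the sources used here. The AL and DR mice were chosen by RNA quality from a larger number per diet, and the piece of cerebellar cortex taken held several folia and no cerebellar nuclei. Poly(A) RNA of each mouse made 1 library, so each library is 1 mouse.

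Potassium channels bring a neuron back to rest after a spike and hold it there, sodium channels start and carry the spike, and HCN channels pass a depolarizing current when the membrane is hyperpolarized. In the cerebellar cortex these currents are known for the fast, regular firing of Purkinje cells, which rests on Kv3 and on sodium channels that reopen after a spike, and for the tandem-pore leak currents of granule cells. In Bergmann glia and other astrocytes, inward rectifiers take up the potassium that active neurons release. Mutations of Kcna1 are a known cause of inherited ataxia.

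Libraries held 31712084 to 40798644 reads counted on genes, with a median of 36674269, and 0.980 to 1.07% of these fell on the 112 channel genes. Of the 112, 88 passed the filter on low counts in each comparison and 87 passed in all 3. The other members are described after the families. Within a diet, the SD of log2 CPM between mice had a median over these 87 genes of 0.10 on AL, 0.12 on DR and 0.097 on KD. Changes are log2 fold changes of counts scaled by TMM (trimmed mean of M values) from edgeR's quasi-likelihood test, with their standard error (SE) and a Benjamini-Hochberg p adjusted over all genes tested. A gene was called when that p was under 0.05. Calls, and statements that a gene or family was not called or did not pass, refer to this test after the low-count filter unless another fit is named. Values by library are CPM (counts-per-million after TMM scaling) and are compared between mice. Levels of different genes are compared as TPM (transcripts-per-million, counts per kilobase of exon scaled to the same sum in each library). In bulk tissue, fewer cells of a type and less RNA per cell cannot be told apart.

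Promoter sequences are shown for 3 genes that were called in KD against DR and have a single promoter in the RefSeq table, starting where the deposited gene model starts: the HCN channel gene Hcn2, the Kv1 channel gene Kcna6 and the glial inward rectifier gene Kcnj10. Each is 300 bases of GRCm38.p6, 250 before the start and 50 after, 5′ to 3′ on the strand of the gene: Hcn2 at chr10:79716384-79716683 on the plus strand, Kcna6 at chr6:126740625-126740924 on the minus strand and Kcnj10 at chr1:172340960-172341259 on the plus strand. Capitals mark the letters of a GC box (GGGCGG or its reverse complement CCGCCC) and of a CCAAT box (CCAAT or ATTGG).
Hcn2: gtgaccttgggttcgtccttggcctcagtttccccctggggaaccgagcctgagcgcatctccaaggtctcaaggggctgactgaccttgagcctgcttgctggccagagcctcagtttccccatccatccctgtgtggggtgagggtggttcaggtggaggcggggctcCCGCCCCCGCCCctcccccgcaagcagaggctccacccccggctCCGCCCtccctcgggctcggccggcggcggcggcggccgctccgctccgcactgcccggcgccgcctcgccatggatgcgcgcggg
Kcna6: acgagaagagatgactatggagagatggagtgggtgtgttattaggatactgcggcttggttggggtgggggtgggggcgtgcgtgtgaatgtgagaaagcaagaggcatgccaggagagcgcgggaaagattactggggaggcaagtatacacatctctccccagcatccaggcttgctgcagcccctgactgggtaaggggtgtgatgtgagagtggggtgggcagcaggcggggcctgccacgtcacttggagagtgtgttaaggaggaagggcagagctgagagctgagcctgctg
Kcnj10: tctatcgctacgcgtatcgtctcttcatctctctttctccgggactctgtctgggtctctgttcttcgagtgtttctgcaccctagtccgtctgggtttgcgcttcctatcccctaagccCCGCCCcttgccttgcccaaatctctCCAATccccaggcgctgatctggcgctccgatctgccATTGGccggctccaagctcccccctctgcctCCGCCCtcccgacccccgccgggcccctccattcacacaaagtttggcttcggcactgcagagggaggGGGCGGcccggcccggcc

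The Hcn2 promoter held 3 GC boxes, the Kcnj10 promoter 3 GC boxes and 2 CCAAT boxes, and the Kcna6 promoter none of the motifs searched. Their GC content was 72.3%, 63.7% and 58.3%, against a median of 52.7% over all 32851 promoters of the table. RefSeq promoters were found for 81 of the 112 channel genes, 108 promoters in all, with a median GC content of 57.7%. The GC box was found on either strand in 48 of these 108 (44.4%) and in 35.7% of all promoters, and the TATA box (TATAAA) in 6 (5.56%) and in 13.6% of all. The CCAAT box stood in 31 (28.7%) against 37.4% of all, the E-box CACGTG in 7 (6.48%) against 7.15%, the cAMP response element TGACGTCA in 0 against 1.79%, and the partial RE1 site TTCAGCACC in 1 (0.926%) against 0.371%. Promoters of 1 gene can overlap, and a match of letters is a description and not a binding site.

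By level, the channel transcripts of this tissue were dominated by auxiliary sodium channel subunits and by Kv3 channels. Summed over the family, sodium channel beta subunits reached 1398 ± 36.1 TPM on AL (SD, n = 4), Kv3 1133 ± 83.7 TPM, inward rectifiers 672 ± 15.1 TPM and tandem-pore channels 535 ± 15.2 TPM. Kv1, the calcium- or sodium-activated channels and the sodium channel alpha subunits followed at 390.5, 373 and 357 TPM, and neighbours in this order overlapped between AL libraries. Kv4, Kv beta, KChIP and the silent Kv subunits lay at 265, 215, 208 and 172 TPM. Kv7, HCN and EAG/ERG/ELK channels lay at 92.8, 87.9 and 74.1 TPM, and Kv2, Kcne, BK beta and Kcnrg at 13.8, 11.9, 10.6 and 6.46 TPM. Over the 12 libraries, 71 of the 112 genes had a mean of at least 1 TPM and 17 of at least 100 TPM. The plot of summed TPM by library shows the spread within and between diets. In HCN and Kcne, among other families, no DR library reached the lowest AL library. HCN summed to 84.5 to 92.2 TPM on AL, 77.0 to 81.5 TPM on DR and 83.6 to 90.3 TPM on KD. Kcne summed to 9.93 to 13.5 TPM on AL, 7.76 to 8.95 TPM on DR and 9.93 to 13.3 TPM on KD. These sums were not tested.

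**Figure D1:**
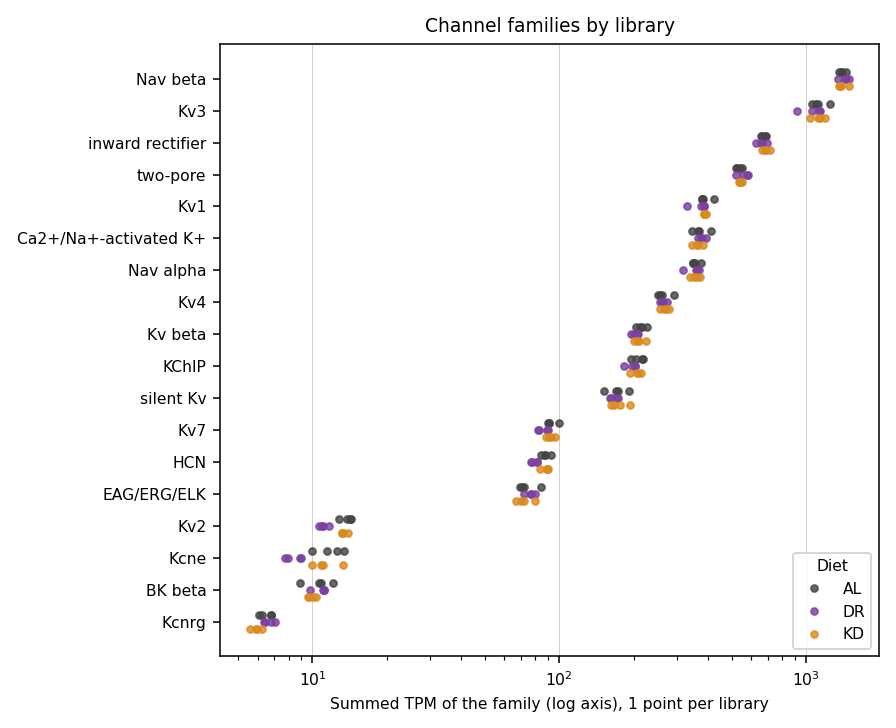
Summed TPM of each channel family on a log axis, 1 point per library, by diet (AL, DR, KD; 4 libraries each). Families span from about 6.46 TPM (Kcnrg) to 1398 TPM (sodium channel beta subunits) on AL, and the DR points of HCN and Kcne lie below all AL points of the same family.

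A few members carried most of each family. Kcna1 and Kcna2 supplied 48.9 to 51.0% and 37.4 to 39.4% of Kv1 TPM in the AL libraries, Kcnd2 and Kcnd3 74.7 to 78.5% and 19.3 to 23.1% of Kv4, and Kcnt1 75.5 to 78.8% of the calcium- or sodium-activated channels. Among sodium channel alpha subunits, Scn2a, Scn8a and Scn1a supplied 40.7 to 42.2%, 33.2 to 34.0% and 23.1 to 24.5%, and on DR they supplied 41.4 to 42.2%, 33.5 to 34.0% and 22.9 to 24.2%, ranges that overlap. Hcn2 supplied 55.7 to 59.0% of HCN transcripts on AL and 55.8 to 58.4% on DR. The share of Kcnc4 in Kv3 was 3.94 to 4.69% on AL, 4.69 to 5.38% on DR and 3.61 to 4.59% on KD.

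**Figure D2:**
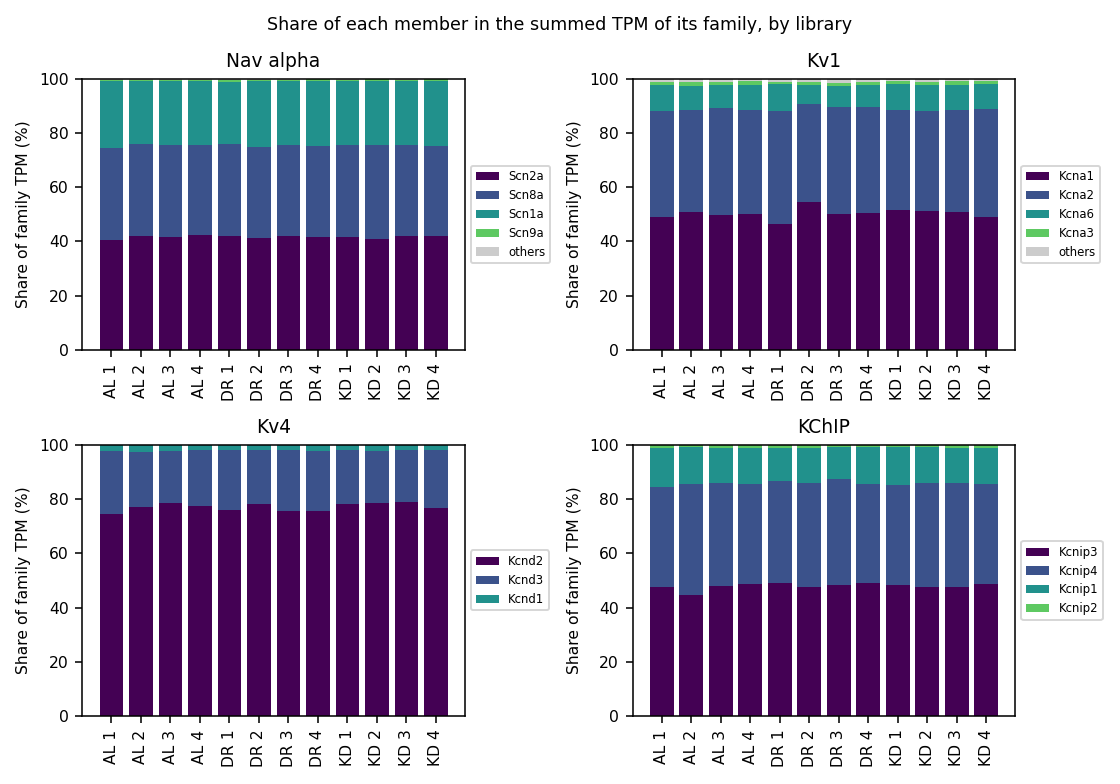
Share of each member in the summed TPM of its family (percent, stacked bars from 0 to 100), 1 bar per library, for sodium channel alpha subunits, Kv1, Kv4 and KChIP. The same members lead in all 12 libraries: Scn2a, Kcna1, Kcnd2 and Kcnip3.

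The first question was which channel genes differed between DR and AL, the comparison for which the study was made. The accessory subunit gene Kcne1l, the glial inward rectifier gene Kcnj16 and Hcn2 were among the genes lower on DR, and no channel gene was called higher. In all, 4 of 88 tested were lower, against 1.74% of all 19052 genes called lower, and 0 of 88 against 1.32% called higher. At an unadjusted p under 0.05, 17 members had lower and 4 higher values, against 8.98% and 9.02% of all genes, so 19.3% of members were on the lower side. DR and AL libraries did not overlap in 12 members lower on DR and in 0 higher, against 5.64% and 5.3% of all genes. Among the 12 were Kcnb2, Kcna3, Kcna6, Kcnab1, Kcnab2, Kcnh7, Hcn2, Kcnj16 and Kcne1l. The median log2 fold change of the 88 members was -0.05, against 0.0036 over all genes tested, and 59 members (67%) were below 0 against 49% of all genes. With each library left out in turn, 0 to 3 members were called lower: 0 without AL replicate 1, 1 without AL replicate 2, AL replicate 4 or DR replicate 3, 2 without DR replicate 2 or DR replicate 4. DESeq2 called 9 members lower and 0 higher, and over all 19052 genes it called 1012, of which 575 were lower.

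Channel genes of KD mice were then compared with those of AL mice. No member was called of 88 tested, as no gene of the 19036 tested was (0% lower and 0% higher in edgeR's quasi-likelihood test). At an unadjusted p under 0.05, 3 members had lower and 2 higher values, against 2.48% and 2.39% of all genes (473 and 455 genes). DESeq2 called 10 genes over the whole table and 0 channel genes. Libraries did not overlap in 2 members lower on KD (Kcnj16 and Kcne4) and 0 higher, against 1.55% and 1.41% of all genes. The median log2 fold change of the members was -0.013, against 0.00021 over all genes.

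Between KD and DR, the DR mice being those of the comparison with AL, 6 members were higher on KD (Kcnb2, Kcna6, Hcn2, Kcnj10 and Kcne1l among them) against 2.43% of all 19087 genes, and Kcna5 was lower against 2.51%. At an unadjusted p under 0.05, 17 had higher and 6 lower values, against 9.29% and 9.39% of all genes. Libraries did not overlap in 13 members higher and 1 lower on KD, against 6.03% and 5.79% of all genes. The median log2 fold change was 0.054, against -0.0024 over all genes. Without KD replicate 4, 3 members were higher, and without DR replicate 4, 10 were. No member was lower without DR replicate 3, KD replicate 1 or KD replicate 3.

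**Figure D3:**
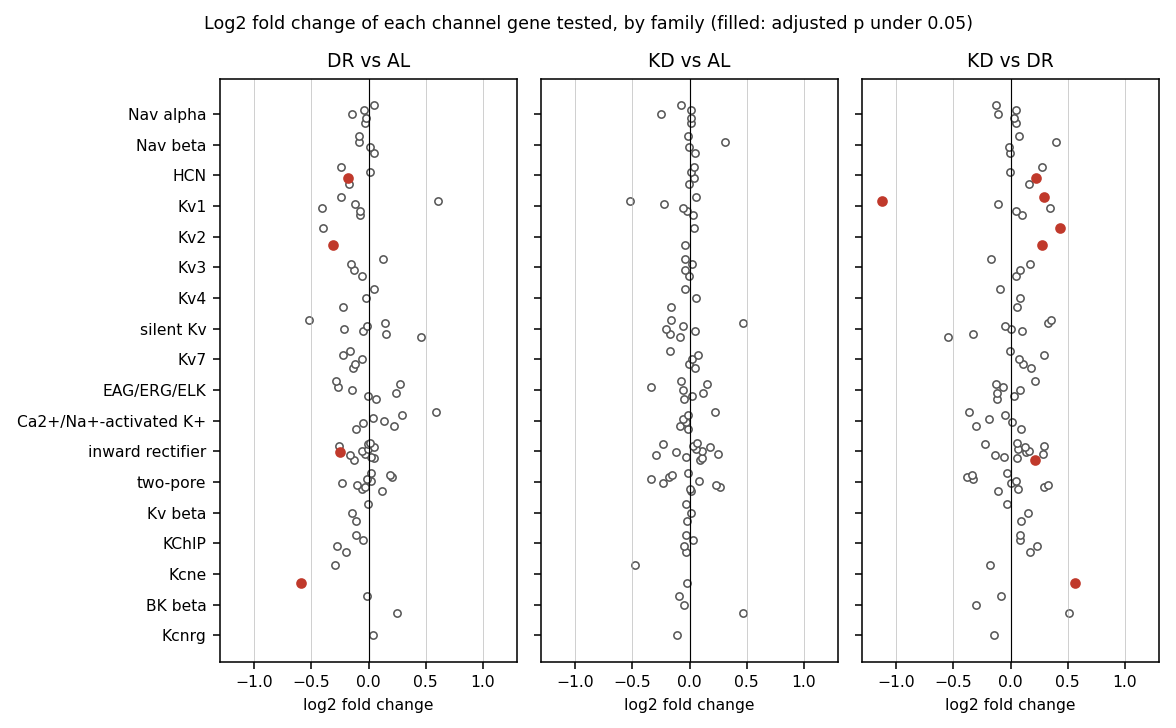
Log2 fold change of each channel gene tested (1 point per gene, horizontal axis) by family (vertical axis) in the 3 comparisons, with filled points for genes called at an adjusted p under 0.05. In DR against AL 4 points are filled, all below 0. In KD against AL none is filled. In KD against DR 6 filled points lie above 0 and Kcna5 lies below, at -1.12.

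Kv2 channels carry the slow delayed rectifier current of the soma and proximal dendrites. Kcnb2 was at 8.60, 8.41, 11.3 and 9.89 CPM in the AL libraries, 7.25, 6.24, 7.51 and 7.89 CPM in the DR libraries and 11.2, 8.76, 9.66 and 9.45 CPM in the KD libraries. All DR libraries lay below all AL and KD libraries. The change of Kcnb2 (chromosome 1, 15287254 to 15723750 of GRCm38.p6) on DR did not pass, at -0.40 (SE 0.11, adjusted p = 0.0635), and passed with DESeq2 (adjusted p = 0.0165), with all 12 libraries in one fit (adjusted p = 0.0400) and with no low-count filter (adjusted p = 0.00483). Between KD and DR it was higher on KD by 0.43 (SE 0.097, adjusted p = 0.0164), a call lost without KD replicate 1 (adjusted p = 0.0684).

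Silent Kv subunits form no channel alone and join Kv2 subunits. Of 10, 7 were tested and none was called in any comparison. Kcng4 was the leading member at a mean of 163 TPM, above that of Kcnb2 at 2.07 TPM. Kcng4 was at 173, 178, 191 and 157 CPM in the AL libraries, 168, 172, 159 and 175 CPM in the DR libraries and 182, 198, 167 and 175 CPM in the KD libraries. The diets overlapped, and the log2 fold change on DR was -0.052 (SE 0.056, adjusted p = 0.684). The other 6 tested were at or below 3.93 TPM.

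**Figure D4:**
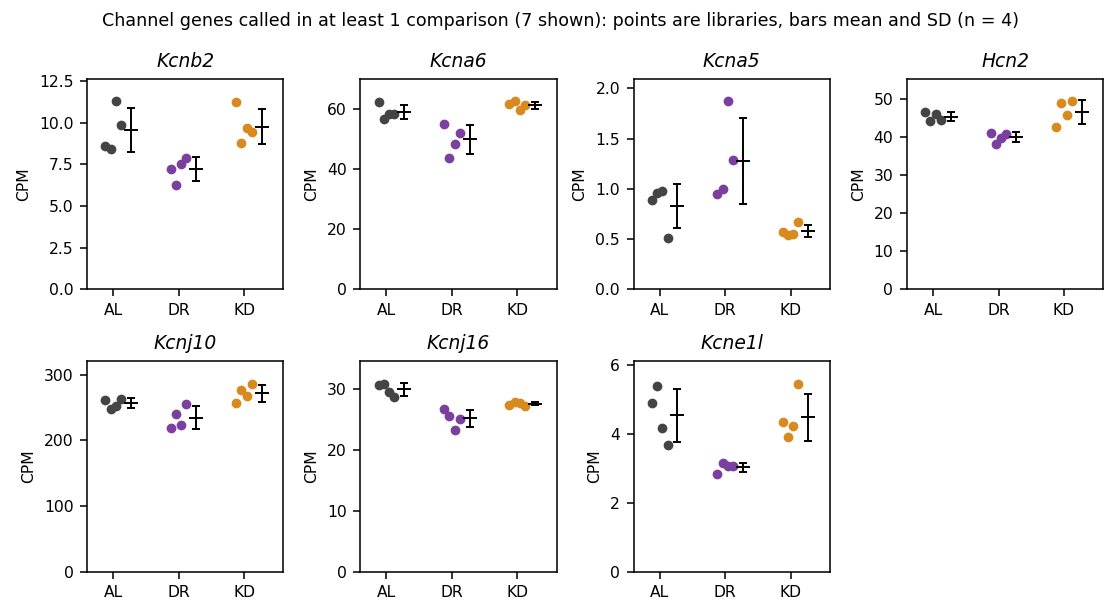
CPM of 7 channel genes called in at least 1 comparison, by diet, each axis from 0. Points are the 4 libraries of a diet, and the bar beside them is the mean with its SD. DR points lie below all AL and KD points in Kcnb2, Kcna6, Hcn2, Kcnj16 and Kcne1l.

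Kv1 channels open near threshold along axons and at terminals, and Kv beta subunits bind them. Of the 6 Kv1 genes tested, 5 had a log2 fold change below 0 on DR and none passed. Kcna6 was at 62.4, 56.7, 58.4 and 58.4 CPM in the AL libraries, 55.1, 43.7, 48.5 and 52.1 CPM in the DR libraries and 61.5, 62.5, 59.5 and 61.2 CPM in the KD libraries. The highest DR library, at 55.1 CPM, stayed below the lowest AL library. The log2 fold change of Kcna6 (chromosome 6, 126708329 to 126740674) on DR was -0.24 (SE 0.063, adjusted p = 0.0535), and passed with DESeq2 (adjusted p = 0.0145), with all 12 libraries in one fit (adjusted p = 0.0217), with no low-count filter (adjusted p = 0.00148) and without DR replicate 1 (adjusted p = 0.0329). KD mice had higher Kcna6 than DR mice, by 0.29 (SE 0.06, adjusted p = 0.00925), and this held in all 8 fits with a library left out. Exons of an antisense gene cover 39.6% of the exon bases of Kcna6, so its value is uncertain.

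Kcna1 was at 251, 262, 273 and 261 CPM in the AL libraries, 209, 272, 254 and 259 CPM in the DR libraries and 268, 265, 269.6 and 264 CPM in the KD libraries. Kcna1 had the highest level of the family, at 193 TPM, and DR replicate 1 lay below all other libraries. Its log2 fold change on DR was -0.076 (SE 0.066, adjusted p = 0.598). Kcna5 was at 0.887, 0.955, 0.976 and 0.507 CPM in the AL libraries, 0.945, 0.998, 1.87 and 1.29 CPM in the DR libraries and 0.572, 0.542, 0.547 and 0.669 CPM in the KD libraries. Kcna5, a cardiac and vascular Kv1 subunit, was low in every library, with the highest value in DR replicate 3. It was lower on KD than on DR by a log2 fold change of -1.12 (SE 0.25, adjusted p = 0.018), a call lost without DR replicate 3 (adjusted p = 0.0686), KD replicate 1 (adjusted p = 0.0524) or KD replicate 3 (adjusted p = 0.0575). Against AL, Kcna5 gave 0.60 (SE 0.26, adjusted p = 0.245) on DR and -0.52 (SE 0.25, adjusted p = 0.994) on KD. Kcna3, a member of low level, was at 2.39 to 3.07 CPM on AL and 1.56 to 2.18 CPM on DR without overlap, with a log2 fold change of -0.41 (SE 0.15, adjusted p = 0.178).

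All 3 Kv beta genes had a log2 fold change below 0 on DR and none passed. Kcnab2 was at 159, 159, 162 and 159 CPM in the AL libraries, 141, 139, 145 and 154 CPM in the DR libraries and 158, 171, 155 and 159 CPM in the KD libraries. Kcnab2 led the family at 98.7 TPM and its DR libraries lay below all others. Its log2 fold change was -0.15 (SE 0.043, adjusted p = 0.0869) on DR and 0.15 (SE 0.046, adjusted p = 0.0713) between KD and DR. DESeq2 called both (adjusted p = 0.0271 and 0.0240). Kcnab1 was at 116 to 123 CPM on AL and 109 to 114 CPM on DR, with a log2 fold change of -0.11 (SE 0.04, adjusted p = 0.167). The plots of log2 fold change show the third, Kcnab3, at -0.0014.

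HCN channels carry the current that depolarizes a cell after hyperpolarization. Hcn2 was at 46.5, 44.3, 46.1 and 44.5 CPM in the AL libraries, 41.1, 38.3, 39.7 and 40.7 CPM in the DR libraries and 42.7, 48.9, 45.7 and 49.4 CPM in the KD libraries. Every DR library was below every AL and KD library. Hcn2 (chromosome 10, 79716634 to 79736108), whose promoter is printed above, fell on DR with a log2 fold change of -0.18 (SE 0.047, adjusted p = 0.0486), and was higher on KD than on DR by 0.22 (SE 0.054, adjusted p = 0.0246). The DR call was lost in each of the 8 fits that leave out a library, with adjusted p from 0.0697 to 0.165, as well as with library size scaling alone (adjusted p = 0.0829) and with no low-count filter (adjusted p = 0.0607). The call between KD and DR was lost without DR replicate 2, DR replicate 3, KD replicate 2, KD replicate 3 or KD replicate 4 (adjusted p from 0.0560 to 0.0841). Hcn3 had a log2 fold change of 0.011 (SE 0.081, adjusted p = 0.966) on DR, and Hcn4, the least abundant member, -0.24 (SE 0.13, adjusted p = 0.349). Exons of other genes cover 17.1% of Hcn3.

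The Kcne subunits are single-span proteins that modify Kv7 and other potassium channels. Kcne1l was at 4.90, 5.39, 4.16 and 3.68 CPM in the AL libraries, 2.84, 3.15, 3.08 and 3.05 CPM in the DR libraries and 4.34, 3.91, 4.21 and 5.46 CPM in the KD libraries. Kcne1l, also called Kcne5 (chromosome X, 142304752 to 142306294), was higher in each AL and KD library than in any DR library, and the DR libraries lay close together. It fell on DR with a log2 fold change of -0.59 (SE 0.13, adjusted p = 0.0288), the most negative among the 88 members tested, and was higher on KD than on DR by 0.57 (SE 0.13, adjusted p = 0.0159). The DR call was lost without AL replicate 1 (adjusted p = 0.101), AL replicate 2 (adjusted p = 0.0932), DR replicate 1 (adjusted p = 0.0764), DR replicate 3 (adjusted p = 0.0710) or DR replicate 4 (adjusted p = 0.0611), and the call between KD and DR without KD replicate 4 (adjusted p = 0.0574). Kcne4 was at 0.813 to 1.17 CPM on AL and 0.542 to 0.798 CPM on KD without overlap, with a log2 fold change of -0.47 (SE 0.22, adjusted p = 0.994) on KD. Kcne1, Kcne2 and Kcne3 were not tested.

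Kv7 channels carry the M current, which damps repeated firing. All 5 members tested had a log2 fold change below 0 on DR, with a median of -0.13, and none passed.

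Kv3 channels close a spike quickly and permit fast firing. No Kv3 gene was called in any comparison.

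Kv4 channels give the A-type current, with KChIP proteins as their calcium-binding partners. Kcnd2 was at 272, 289, 321 and 296 CPM in the AL libraries, 286, 294, 292 and 285 CPM in the DR libraries and 303, 318, 311 and 292 CPM in the KD libraries. Kcnd2, at 205 TPM, overlapped between diets, with a log2 fold change of -0.026 (SE 0.049, adjusted p = 0.837) on DR. All 4 KChIP genes had a log2 fold change below 0 on DR, with a median of -0.16, and none passed in edgeR's test after the low-count filter. Kcnip1, with a log2 fold change of -0.20 (SE 0.06, adjusted p = 0.0862) on DR, was called lower by DESeq2, with all 12 libraries in one fit and with no low-count filter. Its log2 fold change between KD and DR was 0.17 (SE 0.055, adjusted p = 0.0871), and DESeq2 called it higher on KD. Kcnip3 was at 97.2, 98.2, 99.2 and 96.3 CPM in the AL libraries, 100.3, 85.7, 93.0 and 98.5 CPM in the DR libraries and 100.4, 102, 99.8 and 97.2 CPM in the KD libraries. Kcnip3 led its family at 97.5 TPM, with DR replicate 2 the lowest library and a log2 fold change of -0.05 (SE 0.05, adjusted p = 0.662).

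The sodium channel genes, which carry the spike itself, gave no call in any comparison. Of 10 alpha subunits 5 were tested and none was called, and the log2 fold changes of Scn2a, Scn8a and Scn1a on DR were -0.024, -0.037 and -0.034 with SE of 0.047, 0.044 and 0.053. Scn2a was at 509.5, 531, 539.6 and 546 CPM in the AL libraries, 485, 539, 533 and 534 CPM in the DR libraries and 527, 530.1, 561 and 524 CPM in the KD libraries. DR replicate 1 was the lowest and KD replicate 3 the highest, and the diets overlapped. The beta subunits, cell-adhesion proteins that set the gating and placement of the alpha subunits, gave no call among 4 tested. Scn4b, linked to the resurgent current of Purkinje cells, had -0.085 (SE 0.043, adjusted p = 0.316) on DR.

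Inward rectifiers set the resting potential, and Kcnj10 and Kcnj16 form the potassium-buffering channels of glia. Kcnj16 was at 30.7, 30.9, 29.6 and 28.6 CPM in the AL libraries, 26.7, 25.6, 23.3 and 25.1 CPM in the DR libraries and 27.4, 27.9, 27.8 and 27.3 CPM in the KD libraries. The 3 diets did not overlap, with AL highest, KD between and DR lowest. Kcnj16 (chromosome 11, 110968033 to 111027968) fell on DR with a log2 fold change of -0.25 (SE 0.058, adjusted p = 0.031), whereas KD against AL gave -0.12 (SE 0.048, adjusted p = 0.981) and KD against DR 0.13 (SE 0.056, adjusted p = 0.21). The DR call was lost without AL replicate 1 (adjusted p = 0.110), AL replicate 2 (adjusted p = 0.0944), AL replicate 4 (adjusted p = 0.0536), DR replicate 2 (adjusted p = 0.0549), DR replicate 3 (adjusted p = 0.0981) or DR replicate 4 (adjusted p = 0.0726), and with library size scaling alone (adjusted p = 0.0510). Kcnj10 was at 262, 248, 252 and 264 CPM in the AL libraries, 218, 241, 224 and 256 CPM in the DR libraries and 256, 277, 268 and 287 CPM in the KD libraries. Kcnj10 (chromosome 1, 172341210 to 172374085), whose promoter is printed above, overlapped between DR and AL, at -0.13 (SE 0.052, adjusted p = 0.211), and was higher on KD than on DR without overlap, by 0.21 (SE 0.053, adjusted p = 0.0304). That call was lost without DR replicate 1, DR replicate 3, KD replicate 2, KD replicate 3 or KD replicate 4 (adjusted p from 0.0679 to 0.0951).

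Kcnj9 was at 273, 265, 264 and 265 CPM in the AL libraries, 256, 267, 273 and 278 CPM in the DR libraries and 268, 290.4, 275 and 284 CPM in the KD libraries. Kcnj9, a G protein-gated inward rectifier, led the family at 225 TPM, and the diets overlapped with a log2 fold change of 0.009 (SE 0.042, adjusted p = 0.942) on DR. Kcnj10, Kcnj12, Kcnj3 and Kcnj11 followed at 167 TPM, 106 TPM, 76.4 TPM and 55.7 TPM, with 31.1% of Kcnj3 covered by exons of other genes. Of the 12 inward rectifier genes tested, Kcnj16 and Kcnj10 were the ones called in any comparison by edgeR's test after the low-count filter. With no low-count filter, Kcnj6, a G protein-gated member, was also called, lower on DR than on AL and higher on KD than on DR, and its log2 fold changes with the filter were -0.26 (SE 0.13, adjusted p = 0.301) and 0.29 (SE 0.13, adjusted p = 0.228). DR replicate 1 lay far below all other libraries, with DR at 12.8, 21.7, 22.3 and 20.5 CPM. The AL libraries were at 22.1 to 24.2 CPM and the KD libraries at 21.0 to 25.9 CPM, so the Kcnj6 calls rest largely on 1 mouse.

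Tandem-pore channels pass the leak current. None of 10 tested was called in any comparison after the low-count filter by edgeR. Kcnk1 was at 144, 159.9, 136 and 135 CPM in the AL libraries, 162, 168, 128 and 166 CPM in the DR libraries and 145, 140.4, 132 and 160.0 CPM in the KD libraries. Kcnk1 led the family at 235 TPM, and DR replicate 3 lay below the other 3 DR libraries. Its log2 fold change was 0.12 (SE 0.078, adjusted p = 0.46) on DR. The granule cell leak channels Kcnk3 and Kcnk9 were at 103 TPM and 102 TPM, with log2 fold changes on DR of 0.024 and 0.022 (SE 0.045 and 0.041). The 3 lowest unadjusted p of channel genes in KD against AL belonged to Kcnk12, Kcnk2 and Kcnk4. Kcnk12 was at 24.5, 22.3, 28.6 and 30.8 CPM in the AL libraries, 21.7, 27.4, 25.7 and 29.1 CPM in the DR libraries and 30.6, 36.3, 30.5 and 29.9 CPM in the KD libraries. Kcnk12 gave 0.27 (SE 0.09, adjusted p = 0.981) on KD against AL, with overlap, and was called there with no low-count filter (adjusted p = 0.00951). That fit called 118 of all 35236 genes, where the fit with the filter called none. Kcnk12 gave 0.29 (SE 0.084, adjusted p = 0.0557) between KD and DR, without overlap, where DESeq2 called it (adjusted p = 0.0154). Kcnk2 was at 10.4, 11.9, 12.1 and 9.48 CPM in the AL libraries, 9.91, 7.83, 11.04 and 8.38 CPM in the DR libraries and 9.51, 9.39, 9.74 and 8.60 CPM in the KD libraries. Kcnk4 was at 2.59, 3.12, 3.24 and 3.26 CPM in the AL libraries, 3.65, 2.71, 2.59 and 3.11 CPM in the DR libraries and 2.73, 2.48, 2.08 and 2.34 CPM in the KD libraries. Kcnk2 and Kcnk4, which open on membrane stretch, gave -0.23 (SE 0.087, adjusted p = 0.981) and -0.34 (SE 0.13, adjusted p = 0.981) on KD, and exons of other genes cover 12.2% of Kcnk2.

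Calcium- or sodium-activated channels end bursts of spikes. Kcnt1 was at 750.4, 760.0, 832 and 711 CPM in the AL libraries, 761, 815, 778 and 773 CPM in the DR libraries and 753, 799.7, 748 and 719 CPM in the KD libraries. Kcnt1, the sodium-activated channel, led at 287 TPM and the diets overlapped, with a log2 fold change of 0.035 (SE 0.051, adjusted p = 0.781) on DR. The calcium-activated Kcnma1, at 60.6 TPM, gave -0.11 (SE 0.046, adjusted p = 0.238). Kcnmb4, the neuronal BK beta subunit, led its family at 8.67 TPM, with 7.35 to 9.70 CPM on AL, 7.45 to 8.91 CPM on DR and 7.31 to 8.29 CPM on KD, and its log2 fold change on DR was -0.012 (SE 0.10, adjusted p = 0.97). Exons of other genes cover 31.5% of Kcnmb4. Neither family had a call.

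EAG/ERG/ELK channels gave no call among 7 tested. Kcnh1 was at 76.5, 77.3, 89.7 and 74.0 CPM in the AL libraries, 81.4, 78.6, 89.4 and 83.3 CPM in the DR libraries and 71.0, 84.8, 74.8 and 75.7 CPM in the KD libraries. Kcnh1 (EAG) led at 38.7 TPM with a log2 fold change of 0.068 (SE 0.061, adjusted p = 0.608) on DR and -0.05 (SE 0.063, adjusted p = 0.994) on KD. Kcnh7 (ERG) was at 8.26 to 9.81 CPM on AL and 6.79 to 7.91 CPM on DR without overlap, with -0.29 (SE 0.09, adjusted p = 0.104). Kcnrg, a soluble regulator of Kv channels, was at 3.17 to 3.51 CPM, 3.24 to 3.54 CPM and 2.88 to 3.30 CPM on AL, DR and KD, with 0.035 (SE 0.11, adjusted p = 0.916) on DR.

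The members that the low-count filter removed from every comparison were 23 genes of low count, between 1 and 93 reads over all 12 libraries. They include the skeletal muscle sodium channel gene Scn4a and the sensory neuron genes Scn10a and Scn11a, the renal and epithelial rectifiers Kcnj1 and Kcnj15, the Kv1 genes Kcna7 and Kcna10, and the auxiliary genes Kcne1, Kcne2, Kcne3 and Kcnmb3. A further 2, Kcnmb1 and Kcnt2, passed the filter in some comparisons and were not called. With no low-count filter, 110 members were tested on DR against AL, 111 on KD against AL and 112 between KD and DR, and none of the 23 was called.

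Partners of the channels were counted from a list of other genes: anchoring and auxiliary proteins, the sodium leak channel complex and the sodium/potassium pump. Of 46 in the table, 43 were tested. On DR 2 were lower and 1 higher, against 1.74% and 1.32% of all genes. Fgf11, whose protein binds sodium channel alpha subunits, fell from 78.6 ± 4.99 to 63.4 ± 3.80 CPM (SD, n = 4 in both diets), a log2 difference of -0.31 (edgeR, adjusted p = 0.00913). Dpp10, an auxiliary subunit of Kv4, fell from 148 ± 4.34 to 129 ± 2.20 CPM (SD, n = 4 in both diets), a log2 difference of -0.20 (adjusted p = 0.0162, edgeR). Lgi2, a secreted protein of the Lgi family and also a marker of Golgi cells, rose from 149.6 ± 5.46 to 193 ± 4.72 CPM (SD, n = 4 in both diets), a log2 difference of 0.37 (adjusted p = 0.000507, edgeR). No partner was called on KD against AL. Between KD and DR, Fgf11, Dpp10 and the pump subunit gene Atp1b1 were higher on KD (log2 fold changes 0.25, 0.15 and 0.16) against 2.43% of all genes, and Lgi2 and Lgi3 lower against 2.51% (-0.28 and -0.28). The median log2 fold change of the partners on DR was -0.054, against 0.0036 over all genes tested.

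Some marker genes of the cell types in the tissue also differed on DR. Summed CPM of 7 Purkinje cell markers was 2941 to 3127 CPM on AL, 2561 to 2861 CPM on DR and 2988 to 3048 CPM on KD, and 2 of the 7, among them Car8, were lower on DR. Much of the lower sum was Car8, with a mean of 1153 CPM on AL and 973 CPM on DR. The median log2 fold change of the 7 on DR was -0.070, with Pcp2 at -0.039. Of 6 Bergmann glia and astrocyte markers, at 2432 to 2531 CPM on AL and 2212 to 2287 CPM on DR, Aqp4 was lower (log2 fold change -0.52). Of 6 oligodendrocyte markers, at 2256 to 2868 CPM on AL and 2108 to 2618 CPM on DR, 1 was lower. None of 6 granule cell markers was called on DR, at 4546 to 4927 CPM and 4894 to 4977 CPM. Of 3 Golgi and unipolar brush cell markers, Lgi2 was higher (log2 fold change 0.37). Slc6a5 at 0.056 and Eomes at -0.19 were not called, and the median of the 3 was 0.056. The lists of 9 other cell types held no gene called on DR. Between KD and DR, 2 Purkinje cell, 2 oligodendrocyte and 1 astrocyte marker were higher on KD, as were Sox10 of 4 oligodendrocyte precursor markers (log2 fold change 0.60) and Ttr of the choroid plexus markers (2.16). Ttr was at 0.762 ± 0.0739 CPM on DR and 3.41 ± 3.24 CPM on KD (SD, n = 4 in both diets). Of the 6 granule cell markers, Cbln3 (-0.21) was lower on KD than on DR and no other was called. The median of these 6 was 0.0014, with Slc17a7 at 0.13, Neurod1 at 0.080, Cbln1 at 0.010, Gabra6 at -0.0077 and Etv1 at -0.023. Lgi2 (-0.28), of the 3 Golgi and unipolar brush cell markers, was also lower on KD than on DR. Slc6a5 at -0.0099 and Eomes at 0.21 were not called there, and the median of the 3 was -0.0099. The cerebellar nuclei markers summed to at most 4.399 CPM in any library, and the choroid plexus markers to at most 9.53 CPM. In the cell type gene lists of the study, 16 channel genes appear: Hcn2, Kcnj10 and Kcnk13 in the oligodendrocyte list, Kcna4, Kcnab2, Kcnip1, Kcnmb4 and Scn4b in a Purkinje cell list, Kcnj3, Kcnj6, Kcnj12 and Kcnk3 in a granule cell list, and Kcnd3, Kcnk6 and Kcns3 among those in others. The part of these cell types in the lower channel values on DR was not tested.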

How the data were processed

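Cerebellar cortex of 12 mice gave poly(A) RNA that was sequenced from both ends after TruSeq V2 library preparation, which does not keep strand. The authors trimmed reads with Trimmomatic 0.39, aligned them with STAR 2.7.0f to GRCm38.p6 with the GENCODE vM20 annotation, counted reads per gene with featureCounts of Subread 1.6.4 and deposited the raw counts of 54752 genes. The strand setting of the counting is not given in the sources used here.

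Diets were taken from the sample labels, and replicates were numbered in accession order, which pairs no mice. Symbols came from a later GENCODE release (M21) for 54723 genes. Low counts were removed with filterByExpr (a count of at least 10, a total of at least 15). After TMM scaling, diets were compared 2 at a time on the 8 libraries concerned, with no covariate, by the quasi-likelihood test in edgeR 4.0.16 (R 4.3.3). The p-values were adjusted over all genes by Benjamini-Hochberg, and 0.05 was the threshold. TPM were computed from the counts and the deposited exon lengths. The fit was tested on simulated data, with counts drawn for the DR and AL libraries (19052 genes): 98 of 100 genes changed by 0.5 on the log2 scale were recovered with 5 false calls. In that run 200 genes, all above 5 CPM, were changed by 0.5 or 1, and the spread between mice was set alike for every gene. Smaller changes, and changes of genes at lower levels, were not simulated. The recovery of most channel gene changes given here is therefore not known from it. Pairs of libraries within a diet differed by more than sampling noise (chi-square per gene 4.95 to 11.55, 18 pairs).

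Chosen to be named were the channel genes called in any comparison, the most abundant member of each family and the 3 lowest unadjusted p of each comparison, 26 in all. A further 7 (among them Hcn4, Kcna3, Kcnab1, Kcne4 and Kcnh7) were taken up after their values were seen, because diets did not overlap, and so were other members given with a level or a single change. Members and lists were chosen with earlier results of these data known. Genes with over 10% of their exon bases under exons of other genes were marked as uncertain, 7 members in all, which include Kcnj13. Alternatives were RLE size factors, library size alone, no low-count filter, genes above 10 CPM, DESeq2 1.42.0, a single fit of 12 libraries and each library left out. Some genes counted here are not reported by name.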

Additional observations from a re-analysis of the deposited data

Results flagged for a closer look

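In 99 groups of 4 libraries, 6 held a library far from the other 3 by Dixon's criterion (chance flags about 1 in 20 groups). DR replicate 1 was low in Scn2a, at 484.8 CPM against 533.5 to 539.2 CPM, and in Kcna3, at 1.56 CPM against 2.10 to 2.18 CPM. KD replicate 3 was high in Scn2a, at 560.8 CPM against 524.0 to 530.1 CPM. DR replicate 3 was low in Kcnk1, at 127.8 CPM against 161.9 to 167.8 CPM. KD replicate 2 was high in Kcnk12, at 36.3 CPM against 29.9 to 30.6 CPM. AL replicate 1 was high in Kcnj9, at 273.0 CPM against 264.3 to 265.3 CPM.

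A difference between the effects of KD and DR, each against AL, is what edgeR's quasi-likelihood test of KD against DR measures. The 7 channel genes called by it are those counted above, so this is no separate result, and 6 are given again. The log2 difference, KD minus DR, was 0.43 for Kcnb2 (adjusted p = 0.0164), 0.21 for Kcnj10 (adjusted p = 0.0304), -1.12 for Kcna5 (adjusted p = 0.0180), 0.29 for Kcna6 (adjusted p = 0.00925), 0.22 for Hcn2 (adjusted p = 0.0246) and 0.57 for Kcne1l (adjusted p = 0.0159).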

How the results depend on the processing

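No paired analysis was possible because the labels give no replicate numbers shared between diets. Of 1352 alternative values of the named genes, 1285 were counted as unchanged, 39 lost a call and 26 gained one. Those counted as unchanged include any value of an uncalled gene that changed sign by no more than the SE of the main fit. The other 2 changed sign by more than that SE, without a call: Kcna1 on DR without DR replicate 1 (0.0023, range -0.12 to 0.0023 with a library left out) and Kcnh1 on KD without AL replicate 3 (0.015, range -0.10 to 0.015). On DR against AL, 4 members were lower, against 2 with library size alone, 9 with no low-count filter, 9 with DESeq2, 8 with all 12 libraries in one fit and 0 to 3 with a library left out, and none was higher in any of these fits. On KD against AL, 1 member (Kcnk12) was higher with no low-count filter, a fit that called 118 of all 35236 genes (71 lower). With a library left out, none was higher. The median log2 fold change on KD against AL was 0.0093 over genes above 10 CPM and -0.016 to 0.0071 with a library left out. Between KD and DR, 6 members were higher, against 11 with no low-count filter, 10 with DESeq2 and 3 to 10 with a library left out, and 1 was lower, against 0 over genes above 10 CPM and 0 to 1 with a library left out. Medians with a library left out were -0.062 to -0.037 on DR and 0.034 to 0.070 between KD and DR. Over all genes, calls on DR were 583 (331 lower) of 19052, against 565 (243 lower) with library size alone. They were 1258 (687 lower) of 35284 with no low-count filter, 1012 (575 lower) with DESeq2 and 862 (483 lower) of 19557 with all 12 libraries in one fit. Between KD and DR the calls were 942 (479 lower) of 19087, against 993 (617 lower) with library size alone. They were 1503 (717 lower) of 35453 with no low-count filter and 1338 (622 lower) with DESeq2. Why calls differ between tools was not tested. Depth limits the 23 members that the low-count filter removed and those under about 1 CPM, such as Kcna5.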
